A study of Homo sapiens with 30 samples.

Results

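The comparison followed posterior neural ectoderm into a telencephalon medium, from the pNE list of open chromatin on day 2 to the pNE_T list on day 4. Peaks of all 10 deposited lists on chromosomes 1 to 22 were merged where they overlapped by at least 1 bp. A list was called open at a merged region where it had a peak. Of 476170 merged regions, 251934 were open in pNE or pNE_T and form the subject of the comparison. A region is called gained when pNE_T had a peak and pNE had none, lost in the opposite case, and kept when both had one.

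All cells came from H1, a wild-type human embryonic stem cell line, so the values describe 1 line. OmniATAC-seq maps open chromatin with a transposase that cuts accessible DNA, and each library used 50000 cells. Undifferentiated cells (hPSC, day 0) were turned into definitive ectoderm (DE, day 1) with A8301, LDN193189, the MEK inhibitor trametinib and C59, which blocks WNT secretion. They then became anterior (aNE) or posterior (pNE) neural ectoderm on day 2. The aNE medium contained A8301, LDN193189 and C59, and thiazovivin, a survival aid, was in both day 2 media. The pNE medium contained the retinoic acid receptor agonist TTNPB (50 nM), FGF2 (20 ng/mL), the tankyrase inhibitor XAV939 (1 µM) and the inhibitors LDN193189 (100 nM, BMP receptors) and A8301 (1 µM, TGF-beta receptors). Both day 2 populations then received a telencephalon, midbrain or hindbrain medium until day 4, which gave the groups aNE_T, aNE_M, aNE_H, pNE_T, pNE_M and pNE_H. On day 3 the forebrain medium held XAV939, LDN193189 and FGF2, per the labels. The rest of its recipe, and whether TTNPB was present after day 2, is not known here. Plating density was 37500 cells per square cm for aNE and pNE, 75000 for anterior cultures kept to day 4 and 150000 for posterior ones. Medium, time and plating density therefore cannot be told apart between pNE and pNE_T.

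The labels list 3 replicates per group, and 1 peak list per group was deposited. No value below has a replicate error or a test, and read depth is unknown. Differences describe these lists. Intervals are Wilson 95% intervals, which cover the sampling of regions only. On chromosomes 1 to 22 the pNE list held 199638 peaks covering 83.2 Mb and the pNE_T list 207744 peaks covering 86.4 Mb, and the median width was 287 bp in both. The 10 lists ranged from 162041 peaks in aNE to 302355 in pNE_H, so each main result is also given with every list reduced to its 162041 widest peaks ("at one list size").

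In the embryo the neural plate is patterned from head to tail by graded signals. Retinoic acid binds receptors of the RAR and RXR families on DNA, switches on HOX genes and favours hindbrain and spinal cord over forebrain. Inhibition of WNT and BMP signals favours forebrain, where factors such as OTX2 and SIX3 act. HOX genes sit in 4 clusters and give hindbrain segments their identity. Open chromatin marks promoters and enhancers that proteins can reach, which is not the same as transcription.

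The promoters that opened or closed at patterning genes are shown first, because they carry the change in sequence form. RefSeq (GRCh38.p14) lists 33725 promoters on these chromosomes, defined here as 250 bases before to 50 bases after a start. Of these, 899 were gained (2.67%) and 973 were lost (2.89%) from pNE to pNE_T. Among 220 promoters of 135 genes from 13 lists of patterning and lineage genes, 7 were gained, 12 were lost, 148 were kept and 53 were closed in both lists. The shares of listed promoters gained, 3.18%, and lost, 5.45%, stand beside those 2.67% and 2.89% for all promoters. The 4 below are among those where the whole merged region changed class and not only the edge of a peak. They were chosen after the values were seen. Each line gives the 250 bases upstream of the start, 5′ to 3′ on the gene's strand. In OTX2, NKX2-1 and BMP4 capitals mark the bases inside the lost or gained peak.
OTX2 (lost): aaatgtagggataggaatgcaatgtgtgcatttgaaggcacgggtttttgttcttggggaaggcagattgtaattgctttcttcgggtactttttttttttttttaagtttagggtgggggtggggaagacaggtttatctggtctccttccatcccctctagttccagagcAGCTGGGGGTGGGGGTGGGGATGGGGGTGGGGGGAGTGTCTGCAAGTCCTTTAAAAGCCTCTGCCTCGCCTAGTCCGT
NKX2-1 (lost): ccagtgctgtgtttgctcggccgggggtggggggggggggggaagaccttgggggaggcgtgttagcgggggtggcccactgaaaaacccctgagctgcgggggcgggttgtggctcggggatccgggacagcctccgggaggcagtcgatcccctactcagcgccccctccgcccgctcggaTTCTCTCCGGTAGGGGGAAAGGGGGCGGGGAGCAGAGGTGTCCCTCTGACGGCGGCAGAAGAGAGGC
BMP4 (gained): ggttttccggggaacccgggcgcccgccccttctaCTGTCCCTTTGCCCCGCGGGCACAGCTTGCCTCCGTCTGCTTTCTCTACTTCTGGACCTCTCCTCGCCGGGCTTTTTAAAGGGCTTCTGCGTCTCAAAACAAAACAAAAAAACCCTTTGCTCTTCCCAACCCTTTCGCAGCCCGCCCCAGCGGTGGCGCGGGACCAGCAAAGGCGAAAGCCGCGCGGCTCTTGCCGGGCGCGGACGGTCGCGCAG
NANOG (lost; capitals mark a POU site followed by a SOX site): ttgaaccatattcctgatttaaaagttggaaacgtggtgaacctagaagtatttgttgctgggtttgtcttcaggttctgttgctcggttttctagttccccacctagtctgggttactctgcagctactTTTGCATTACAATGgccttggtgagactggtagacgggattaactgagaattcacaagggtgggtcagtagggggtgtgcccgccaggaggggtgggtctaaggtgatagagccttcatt

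OTX2, a homeobox factor needed for forebrain and midbrain, had its peak at the start on the minus strand of chromosome 14 (promoter 56805618 to 56805917; peak 56805288 to 56805745, 458 bp). This promoter was open in hPSC, DE, aNE, pNE, aNE_T, aNE_M, aNE_H and pNE_M, and closed in pNE_T and pNE_H. The nearest pNE_T peak lay 2338 bp away. The other OTX2 start with an entry was open in DE only. NKX2-1, a ventral forebrain factor, lost a 181 bp peak at 1 of its 2 starts (chromosome 14, promoter 36520183 to 36520482, minus strand). That promoter was closed in pNE_T, pNE_M, aNE_M and aNE_H and open in the 6 other lists, and a pNE_T peak lay 171 bp away.

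BMP4, which encodes a secreted dorsalising signal, gained a 292 bp peak at 1 of its 3 starts (chromosome 14, promoter 53955001 to 53955300, minus strand). Among the 10 lists it was open in pNE_T and pNE_H. Its remaining promoters were open in both pNE and pNE_T. The NANOG promoter (chromosome 12, 7789152 to 7789451, plus strand) was open in hPSC, DE, aNE, pNE and aNE_T and closed in the 5 remaining day 4 lists, so the 2 telencephalon lists differed there. NANOG is a core pluripotency factor. Its pair, the POU site TTTGCAT followed after 1 free base by the SOX site ACAATG, was searched on both strands, was found in 3 of the 33725 promoters and lies at −120 to −107 from the NANOG start. The other promoters with the pair, those of NRARP and LOC105370047, were kept and open in all 10 lists. A match describes letters and not a bound site.

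The other gained promoters of listed genes were the single ones of HOXD4, FGF3 and BARHL2, 1 of the 6 of GATA3 and 1 of the 3 of SPRY2. In these 5 genes pNE had a peak elsewhere in the same merged region. GATA3 had 3 and SPRY2 1 further promoters open in both lists. ELAVL4, with 7 promoters, had 1 gained, 1 lost and 1 kept. The other lost promoters included 1 of the 9 of PAX6, of which 4 were open in both lists. EPHA4, of the hindbrain list, had 1 of its 2 promoters lost and the other kept. TCF7L2 had 1 of 3 lost and 2 kept. Both promoters of NR2F2 were lost. The single promoters of PAX8 and PAX3 were lost in pNE_T and open in all 8 other lists, and a pNE_T peak lay 440 bp and 25 bp away. CYP26A1, whose enzyme degrades retinoic acid, had 1 of its 2 promoters lost and the other kept, and a pNE_T peak lay 32 bp from the lost one. The HOXD4 promoter was open in hPSC, DE, pNE_T, pNE_M and pNE_H. The FGF3 promoter was open in pNE_T and pNE_H, and the BARHL2 promoter in pNE_T alone. HOXD4 and FGF3 belong to the hindbrain list and BARHL2 to the forebrain list. HOXA2, which sets the identity of an anterior hindbrain segment, had an open promoter in pNE, pNE_T, pNE_M and pNE_H and in none of the 6 other lists.

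As a check of the label, 13 genes of the list of telencephalon and rostral forebrain factors had a promoter entry. Of these, 11 were open in pNE_T, 12 in pNE and 12 in aNE_T, and 11 were open in hPSC. Of the 12 hindbrain genes with an entry, 9 were open in pNE_T, 7 in pNE, 5 in aNE_T and 9 in pNE_H. In pNE_M 9 were open, and in hPSC and DE 7 each, as many as in pNE. The number of open forebrain promoters thus differed by at most 1 gene between these lists, hPSC included. SIX3 had no entry.

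From pNE to pNE_T, 65509 regions were gained (13.8% of all merged regions), 55062 were lost (11.6%) and 131363 were kept. Lost regions made up 29.5% of the open regions of pNE, and gained regions 33.3% of those of pNE_T. The 2 lists had a Jaccard index, the shared regions over those open in either, of 0.521. At one list size the counts were 50023 gained, 47728 lost and 105384 kept, with a Jaccard index of 0.519. Gains exceeded losses under each of the sizes drawn in the plot of classes, by a smaller margin at one list size than as deposited. Comparisons that share the pNE list gave 61176 gained (12.8%) and 52481 lost (11%) for pNE_M, and 130239 gained (27.4%) and 26287 lost (5.52%) for pNE_H. With equal lists those values were 45295 and 45727 for pNE_M and 49988 and 44507 for pNE_H.

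**Figure D1:**
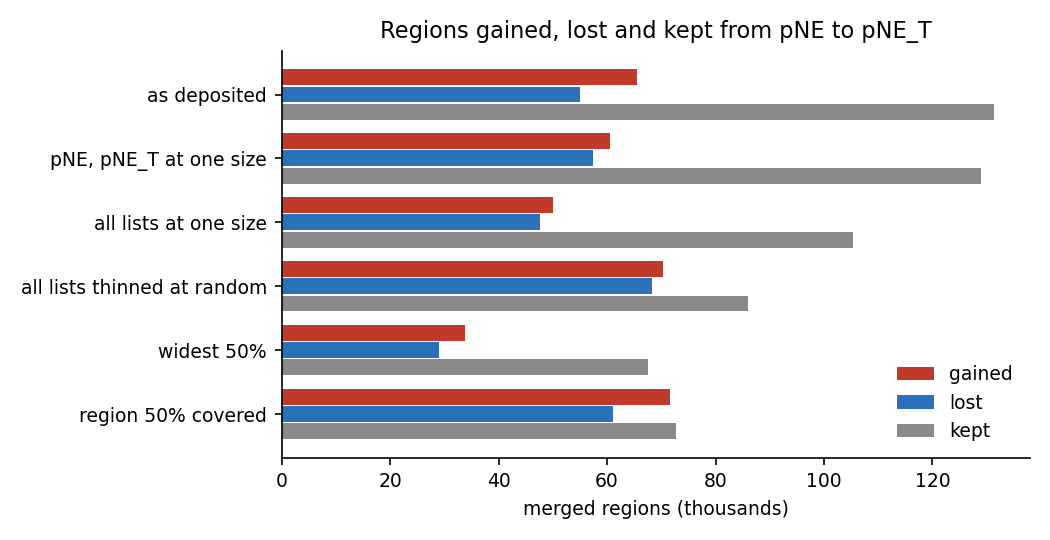
Numbers of merged regions (x axis, in units of 1000) that were gained (red), lost (blue) or kept (grey) from pNE to pNE_T under 6 ways of reading the lists. As deposited 65509 were gained and 55062 lost, and with all lists at one size 50023 and 47728; in every setting drawn more regions were gained than lost.

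Gained and lost peaks were narrower than kept ones. Lost pNE peaks had a median width of 192 bp against 356 bp for kept pNE peaks, and gained pNE_T peaks 202 bp against 353 bp for kept pNE_T peaks. Of the gained peaks 8.98% were 500 bp or wider, and of the kept pNE_T peaks 34.3%. The width of kept regions was nearly the same in both lists, with a median log2 ratio of covered bases of −0.03. The covered bases were at least 2 times as many in 7.27% of kept regions and at most 0.5 times as many in 8.82%. Width reflects how peaks were called as well as the chromatin.

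Gained regions lay far from gene starts. Within 1 kb of an annotated start lay 2.41% of gained, 2.80% of lost, 12.5% of kept and 5.22% of all merged regions. The median distance to a start was 45.3 kb for gained, 40.6 kb for lost and 30.8 kb for kept regions. Inside protein-coding genes lay 48.1% of gained, 50.6% of lost and 54.6% of kept regions. Promoters that were gained had a median of 4 CpG dinucleotides in 300 bases and those lost 5, against 26 in kept promoters and 14 over all.

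The 8 lists that did not define the classes were then read at gained and lost regions. Of the gained regions, 57.9% (57.5 to 58.2) were open in pNE_H, 28.1% in pNE_M and 21.0% (20.7 to 21.3) in aNE_T, the list made with the same medium from anterior cells. In aNE 10.6% of them were open, in aNE_H 12.4% and in hPSC 14.6%. Over all merged regions 61.0% were open in pNE_H and 38.1% in aNE_T. Gained regions are closed in pNE by definition and all merged regions include those open in pNE, so these shares are not a like background. Among regions closed in pNE, 130239 were open in pNE_H and 42234 in aNE_T, so pNE_H was the more often open there too. At one list size, where 43.6% to 45.4% of all merged regions were open in each list, 40.5% of gained regions were open in pNE_H, 27.2% in pNE_M, 22.8% in aNE_T and 13.02% in aNE_H. The posterior hindbrain list thus held more of the gains than the anterior telencephalon list under both readings. It was no mark of gains against losses: as deposited pNE_H was open at 63.3% of lost regions, more than at gained ones, and at one list size at 38.8%, fewer than at gained ones. When lists were thinned at random, which turns some shared peaks into differences, 36.2% of gained regions were open in pNE_H and 32.6% in aNE_T. The share of lost regions open in pNE_H was then higher than that of gained ones, as in the deposited lists.

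Most gains had no earlier peak: 75.4% were closed in both hPSC and DE, and 16390 (25.0%) were open in no other list. A further 36.5% were open in pNE_H and in no day 4 list from aNE. Regions open in aNE_T and closed in pNE_H made up 7.96% of the gains. Those open in aNE_T and in no other day 4 list beside pNE_T made up 3.63%. This last condition is stricter than the one for pNE_H, which let pNE_M be open, and pNE_H is the largest list.

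**Figure D2:**
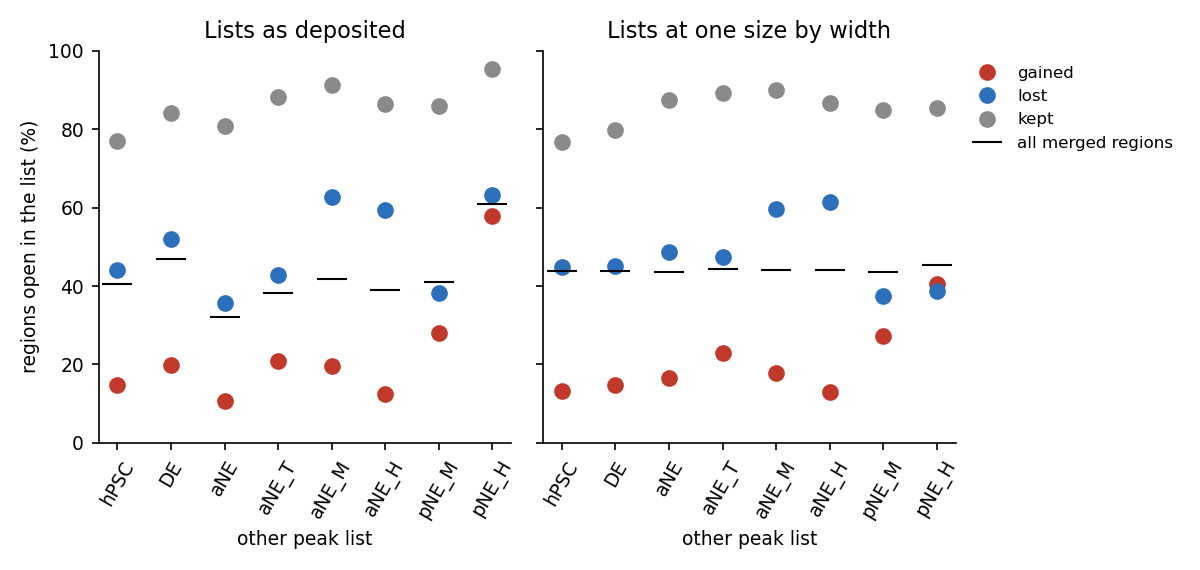
Share of gained (red), lost (blue) and kept (grey) regions open in each of the 8 other peak lists, in percent, with all merged regions as a black dash; the lists are as deposited on the left and at one size on the right. Gained regions were most often open in pNE_H (57.9% and 40.5%), and lost regions were open there at 63.3% and 38.8%; lost regions were open in aNE_M (62.8% and 59.8%) and aNE_H (59.4% and 61.4%) more often than gained and than all merged regions.

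Regions lost in pNE_T were often open elsewhere, though in each of the 8 other lists less often than kept regions. Lost regions hold a pNE peak by definition and gained ones do not, which bears on each contrast between them. Of the lost regions, 63.3% were open in pNE_H and 38.2% in pNE_M, 62.8% in aNE_M, 59.4% in aNE_H, and 42.7% in aNE_T. In 1 or more of the 3 anterior day 4 lists 78.9% were open. In DE 52.0% were open, and 44.0% in hPSC. Closed in both hPSC and DE were 39.6% of losses, against 75.4% of gains. There were 3914 lost regions, 7.11%, open in all 8 other lists, with a median width of 290 bp. The number of regions open in the other 9 lists and closed in one was 374 for pNE, 3914 for pNE_T, 3336 for pNE_M and 413 for pNE_H, and ranged from 348 to 5493 over the 10 lists.

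The medium was also given to anterior cells, so a step into it can be read from another origin with no list in common. The origins also differed in their day 2 medium and in plating density, 150000 cells per square cm for pNE_T and 75000 for aNE_T, which cannot be told apart from origin in any comparison of the 2. From aNE to aNE_T 52364 regions were gained (11%) and 23147 lost (4.86%), and 64.1% of genes had more gained than lost regions within 50 kb, 18.3% more lost. Both origins gained 8997 regions, which is 13.7% of the posterior and 17.2% of the anterior gains. Both lost 5010 regions, 9.10% of the posterior and 21.6% of the anterior losses. In lists of one size 11.8% of posterior gains and 13.9% of posterior losses were shared with the anterior origin.

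Sets of regions that would bring pNE closer to 1 target or the other were followed into pNE_T. Among 25221 regions closed in pNE, open in aNE_T and closed in pNE_H, 20.7% were open in pNE_T and 9.94% in pNE_M. Among 113226 regions closed in pNE, open in pNE_H and closed in aNE_T, 26.0% were open in pNE_T and 24.9% in pNE_M. Over all regions closed in pNE, the share open in pNE_T lay between 20.7% and 26.0%, so both sets were near it. With equal lists pNE_T was open at 23.1% of the first set and 37.7% of the second. The order of the 2 sets was the opposite after random thinning, with 32.3% and 22.5%. It was also the opposite as deposited when a region could be open in both targets. Of 42234 regions closed in pNE and open in aNE_T, 32.5% were open in pNE_T. For 130239 regions closed in pNE and open in pNE_H the share was 29.1%, and for 61176 open in pNE_M 30.1%. Of 47192 regions open in pNE and closed in aNE_T, 66.8% were closed in pNE_T. For regions open in pNE and closed in pNE_H the share was 76.9%, and for those closed in pNE_M 64.8%. Over all regions open in pNE it was 29.5%.

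Similarity to aNE_T was lower on day 4 than on day 2. The Jaccard index with aNE_T was 0.609 for pNE and 0.52 for pNE_T, a difference of −0.0889, and it lay between −0.1 and −0.0725 under the 7 alternative readings. pNE_T also had a lower index than pNE with each of the other lists as deposited. It was 0.505 against 0.67 with aNE_M, 0.466 against 0.648 with aNE_H, 0.396 against 0.493 with hPSC and 0.504 against 0.506 with pNE_H. Leaving out the index between pNE and pNE_T, the closest list as deposited was aNE_M for pNE and aNE_T for pNE_T. With every list cut to one size the order with pNE_H was the opposite, 0.542 for pNE_T and 0.535 for pNE, and pNE_T remained lower with the 7 other lists. At that size pNE_H was closer to pNE_T than aNE_T was, whose index with pNE_T was 0.515.

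By nearest end of a protein-coding gene, the 10 genes with the most gained regions were TENM4, TENM3, AUTS2, LRRC4C, PTPRD, PIK3C3, SORCS1, ADGRL2, RBFOX1 and TENM2. Over all regions open in either list, 26% were gained and 21.9% lost. TENM4, a teneurin that guides contacts between neurons, had 96 gained, 41 lost and 121 kept regions; 52 of the gained ones were open in pNE_H, 7 in aNE_T and 31 in no other list. TENM3, of the same family, had 95 gained and 77 lost, and TENM2 69 and 52. AUTS2, a gene tied to neurodevelopment, had 90 gained and 68 lost, of which 46 gained were open in pNE_H and 24 in aNE_T. LRRC4C, which encodes a synaptic adhesion protein, had 87 gained and 42 lost. PTPRD, a receptor phosphatase of synapses, had 84 and 60, SORCS1, a sorting receptor, 75 and 46, and ADGRL2, an adhesion receptor, 73 and 53. RBFOX1, a neuronal splicing factor, had 69 and 45.

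PIK3C3, a lipid kinase of autophagy, is 132.6 kb long, while the other 9 genes span 607.5 kb or more. It had 76 gained, 27 lost and 77 kept regions, with 54 gained regions open in pNE_H. Just outside the 10 stood FHIT with 68 gained regions and MAGI2 and TAFA5 with 67. Genes of 200 kb or more had 29.4% of their open regions gained and genes under 10 kb 23.8%. Between 6 and 10 of the 10 genes stayed in the top 10 under the 8 alternative readings.

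Of the 10 genes with the most lost regions, TENM3, AUTS2, PTPRD, ADGRL2 and TENM2 were also among the most gained. The others were GPC5 (65 gained, 55 lost), ROBO1 (42 and 55), ARID1B (36 and 47), CADM2 (46 and 46) and DLG2 (41 and 46). ROBO1 is an axon guidance receptor and ARID1B a subunit of a chromatin remodelling complex. The highest surplus of gained over lost regions was 55 at TENM4, 49 at PIK3C3, 45 at LRRC4C, 43 at FHIT and 41 at CDH13, an adhesion gene with 60 gained and 19 lost. The lowest values were −20 at IGF1R (19 gained, 39 lost), −18 at ROR1 (19 and 37), −17 at CCDC171 (9 and 26), −16 at GLI3 (10 and 26) and −15 at CITED2 (23 and 38). IGF1R and ROR1 encode receptors for insulin-like growth factors and WNT5A, and GLI3 a transcription factor of the hedgehog pathway. No surplus or deficit at these 10 genes changed sign under any alternative reading.

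**Figure D3:**
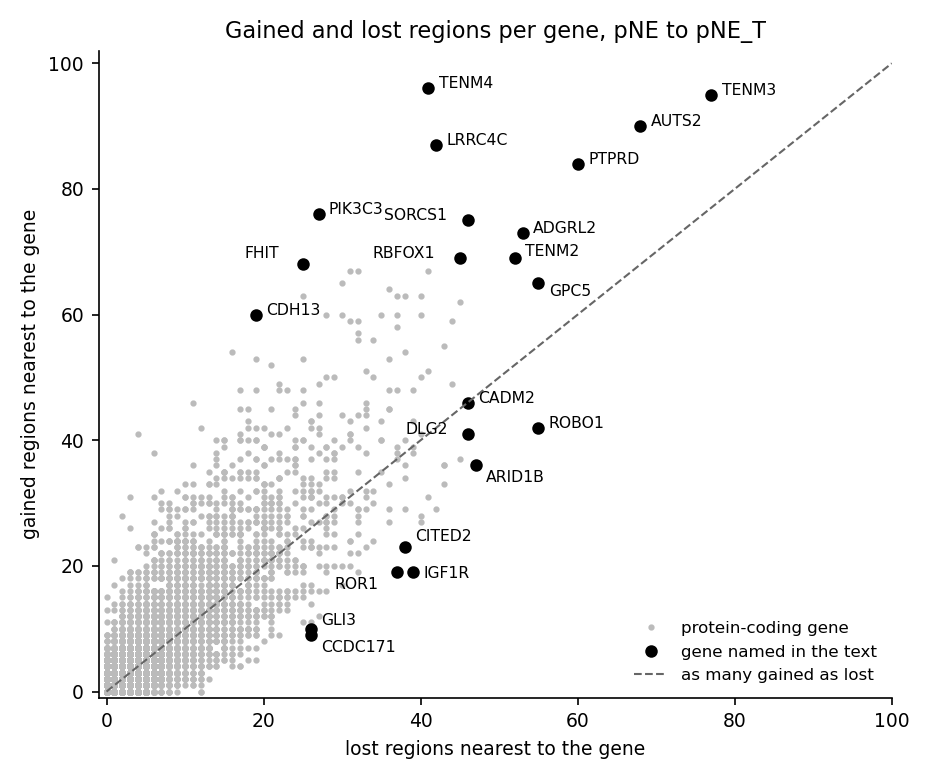
Gained regions (y axis) against lost regions (x axis) per protein-coding gene, with each region assigned to its nearest gene end; black points are the genes named in the text and the dashed line marks equal numbers. TENM4 (96 gained, 41 lost), LRRC4C and PIK3C3 lie far above the line and IGF1R, ROR1 and GLI3 below it.

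Distal peaks, over 1 kb away from the ends of all annotated genes, were ranked by width, and the widest gained ones were shared by the posterior lists. Of the 4, 3 were open in pNE_T, pNE_M and pNE_H alone: 1929 bp at chromosome 7, 42672253 to 42674181, in no gene; 1745 bp at chromosome 15, 33453786 to 33455530, inside RYR3; and 1616 bp at chromosome 17, 13885733 to 13887348, in no gene. The remaining one, 1590 bp inside SPATA13 (chromosome 13, 24083158 to 24084747), was open in 7 of the 8 other lists. The 4 widest lost peaks were open almost everywhere else. The peaks at chromosome 20, 53562654 to 53564148, 2.92 kb from an end of ZNF217, and inside AUTS2 (chromosome 7, 70699915 to 70701278) were open in all 8 other lists. Those at chromosome 17, 51607550 to 51608973, and inside ANAPC10 (chromosome 4, 145013612 to 145014939) were open in 7.

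Genes were next read by role, with regions counted in the gene and up to 50 kb on either side. Over 18675 protein-coding genes with an open region there, 42.9% had more gained than lost regions, 41% more lost than gained and 89.5% at least 1 gained region; at one list size those of more gained and more lost were 36% and 46.1%, so the order turned. The balance of a list is the number of its genes with more gained minus the number with more lost regions. Over the 9 alternative readings the balance of the hindbrain list stayed above 0, between 8 and 15. That of 11 other lists changed sign in 1 or more readings, and the surface ectoderm list stood at 0 as deposited. In the hindbrain list 16 of 20 genes had more gained, 2 more lost and 2 as many of each, with a median surplus of 5 regions against 0 over all genes. With equal lists the numbers were 16 and 4. Its windows held 142 gained and 80 lost regions. Of regions open in either list there, 29.2% were gained and 16.4% lost, against 26.0% and 21.9% over all regions. At one list size the shares were 25.8% and 16.7%, against 24.6% and 23.5%. The gained share was thus near that over all regions, and the lost share was below it. Bases inside peaks in these windows were 172859 in pNE and 191488 in pNE_T, 10.8% more, against 3.84% more genome-wide. Windows of neighbouring HOX genes overlap, so these 20 genes are not 20 separate loci.

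MEIS2, a HOX cofactor, had 20 gained and 6 lost as deposited, and 10 and 8 at one list size. Of the 20 gained regions 12 were open in pNE_H and 2 in aNE_T. The widest gained peak of MEIS2, 1233 bp inside the gene (chromosome 15, 36996800 to 36998032), was open in pNE_T and pNE_H only. HOXB3 and HOXB4 had 12 gained and 3 lost each, and HOXD3 10 and 2. At one list size HOXB3 and HOXB4 had 9 and 2 each, and HOXD3 7 and 2. FGF3, a hindbrain signal, had 0 gained and 5 lost and EGR2, a segment factor, 1 and 4.

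HOX clusters were also read whole, a choice made once their values were known. In the HOXB cluster (chromosome 17, 48528526 to 48728750) 12 regions were gained, 5 lost and 31 kept, and 9 of the gained ones were open in pNE_H, 6 in pNE_M and 3 in aNE_T. Bases inside peaks in HOXB were 16643 in pNE, 20582 in pNE_T, 24113 in pNE_M and 27902 in pNE_H. Among the other lists hPSC held 21770, aNE_H 15972, aNE_T 15306 and aNE_M 15037. HOXA had 15318 bases in pNE and 17524 in pNE_T, HOXC 11710 and 12561, and HOXD 13943 and 16760. In all 4 clusters pNE_T lay above pNE and below pNE_M and pNE_H. pNE_T also lay above aNE_T in HOXA, HOXB and HOXD, and below it in HOXC, where aNE_T held 13159. At one list size the values in pNE and pNE_T were 14714 and 17114 in HOXA, 15245 and 19593 in HOXB, 10762 and 11894 in HOXC, and 13538 and 15938 in HOXD.

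**Figure D4:**
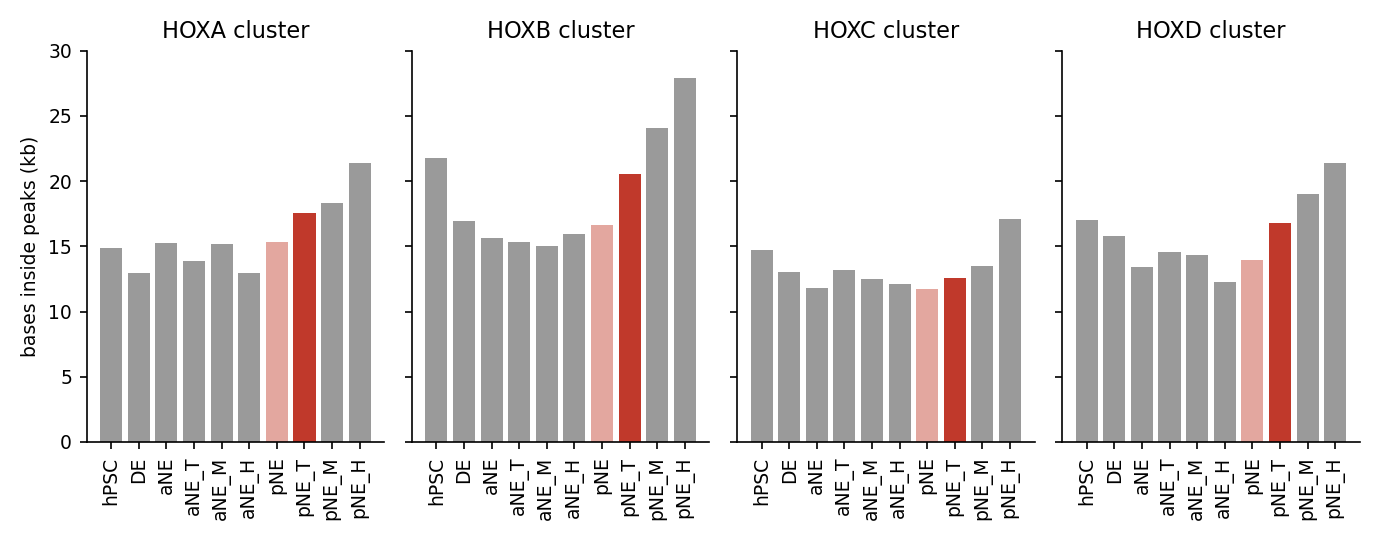
Bases inside peaks, in kb, within each HOX cluster for the 10 lists as deposited; pNE is light red, pNE_T red and the other lists grey. pNE_T lies above pNE and below pNE_M and pNE_H in all 4 clusters, for example 16643 bases in pNE and 20582 in pNE_T for HOXB.

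The telencephalon and rostral forebrain list had no stable direction. Of 19 genes matched, 6 had more gained, 11 more lost and 2 as many of each, with a median of −1; at one list size the numbers were 7, 10 and 2. By nearest gene end 8 had more gained and 5 more lost, where peaks had to cover 50% of a region 11 and 8, and in windows of 500 bp 8 and 8. Regions gained were 59 and lost 61, which is 16.9% and 17.5% of those open in either list, against 26.0% and 21.9% over all regions. Bases inside peaks were 146181 in pNE and 141684 in pNE_T. FEZF2, a forebrain zinc finger factor, had the most gained regions, 7, with 3 lost; its widest gained peak, 812 bp at chromosome 3, 62420939 to 62421750, inside CADPS, was also open in pNE_H. SIX3, which represses posterior signals in forebrain, had 6 gained and 1 lost at deposited sizes and 5 and 3 at one list size. LHX2, a cortical selector gene, had the most lost regions, 8, with 3 gained, and all 8 lost ones were open in pNE_H and 6 in aNE_T. The number of open regions around LHX2 was 25 in hPSC, 24 in DE, 19 in aNE, 19 in pNE, 24 in aNE_T, 28 in aNE_M, 20 in aNE_H, 14 in pNE_T, 18 in pNE_M and 23 in pNE_H, lowest in pNE_T. VAX1, a ventral forebrain factor, had 1 gained and 5 lost. Beside its promoter, OTX2 lost a 901 bp peak at chromosome 14, 56846948 to 56847848, 36.4 kb from the gene, which all 8 other lists held.

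Among 20 genes of retinoic acid signalling 10 had more gained and 8 more lost, and at one list size 8 and 11, so the list did not keep a direction. RARB, a receptor whose gene is itself a retinoic acid target, had the most gained regions of any listed gene, 36, with 13 lost and 45 kept, and 27 and 11 at one list size. Genes of 200 kb or more, RARB among them, had 29.4% of their open regions gained by nearest gene end. The window of RARB held 94 regions open in either list. Of its gained regions 17 were open in pNE_H and 2 in aNE_T. Open regions in the RARB window numbered 35 in hPSC, 51 in DE, 36 in aNE, 58 in pNE, 48 in aNE_T, 46 in aNE_M, 49 in aNE_H, 81 in pNE_T, 75 in pNE_M and 132 in pNE_H. The 4 lists from the posterior branch were the highest, and pNE_T was higher than pNE. CRABP1, a retinoic acid binding protein, had 9 gained and 2 lost, and CYP26A1 6 and 3. ALDH1A1, which makes it, had 5 gained and 1 lost, and its widest gained peak, 1309 bp at chromosome 9, 72983129 to 72984437, was open in aNE_H, pNE_M and pNE_H as well. STRA6, a retinol transporter, had 3 gained and 8 lost. RARA had the widest lost peak of the list, 953 bp inside the neighbouring gene CDC6 (chromosome 17, 40295347 to 40296299). It was open in 6 other lists and closed in the posterior ones of day 4. Retinoic acid receptor elements, searched on both strands as any 2 copies of the motif AGGTCA, its variant AGTTCA, its variant GGGTCA or its variant GGTTCA in direct repeat with 5 bases between them, were in 1 of 899 gained and 0 of 973 lost promoters and in 30 of all 33725.

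**Figure D5:**
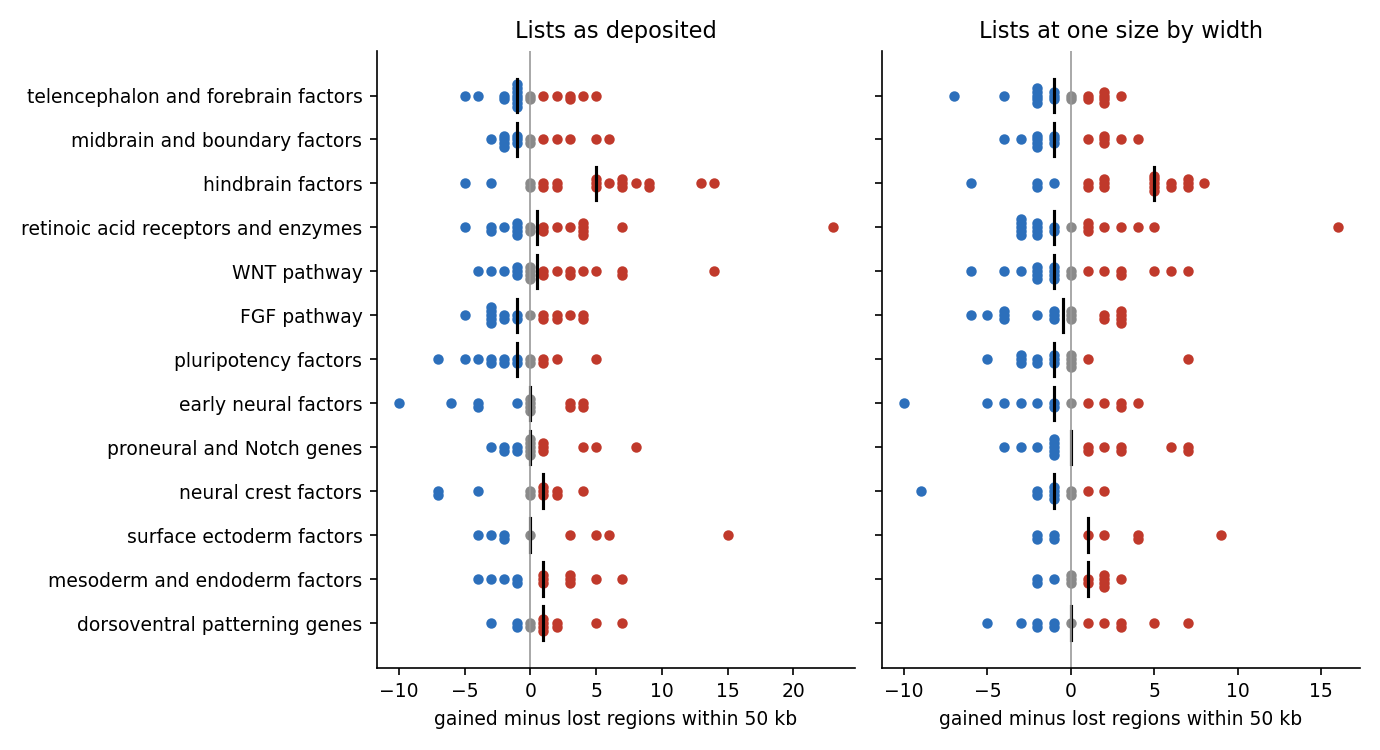
Gained minus lost regions within 50 kb for each gene of the 13 lists (x axis), as deposited on the left and at one list size on the right; red points have more gained, blue more lost, grey as many of each, and the black bar is the median. The hindbrain list has a median of 5 in both panels, and RARB (36 gained, 13 lost) is the point farthest right on the left.

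In the pluripotency list 9 of 15 genes had more lost and 4 more gained regions, and at one list size 9 and 2. By nearest gene end the order turned, with 2 more lost and 6 more gained. Its windows held 33 gained and 53 lost regions, 15.9% and 25.5% of those open in either list, against 26.0% and 21.9% over all regions. Bases inside peaks there differed by −7.88% between pNE and pNE_T. FGF4, a target of the pluripotency network, had 0 gained and 7 lost regions and shares part of its window with FGF3. NANOG had 1 gained and 6 lost, and UTF1 0 and 4. Against the list, TFCP2L1 had 9 gained and 4 lost. NANOG's window held 19 open regions in hPSC, 11 in pNE, 8 in aNE_T, 6 in pNE_T and 16 in pNE_H.

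Early neural genes were near balance, with 4 of 13 having more gained and 5 more lost, and a balance of 6 by nearest gene end. GLI3 had 4 gained and 14 lost, 3 and 13 at one list size, ZIC1 3 and 9, SOX1 1 and 5 and CDH2, the neural cadherin, 15 and 11. Of the FGF pathway 7 of 18 genes had more gained and 10 more lost, and FGFR2, an FGF receptor, had 11 and 14. WNT pathway genes numbered 10 and 6 of 20, and 7 and 11 at one list size. LEF1, a WNT effector, had 21 gained and 7 lost, SFRP2, a secreted WNT antagonist, 7 and 0, and TCF7L2, another effector, 6 and 10. Midbrain genes numbered 5 and 8 of 15, and their balance was 5 by nearest gene end. PAX5, a midbrain-hindbrain boundary factor, had 14 gained and 9 lost.

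Of 16 proneural and Notch genes 6 had more gained and 5 more lost; NEUROG1, which starts neurogenesis, had 8 gained and 0 lost, and NOTCH2 9 and 8. Dorsoventral genes numbered 8 and 3 of 13, and 6 and 6 at one list size, and GLI2 had 13 gained and 16 lost. Markers of other lineages gave no common direction. Mesoderm and endoderm genes numbered 8 and 5 of 13, with FOXA2 at 7 gained and 0 lost and GATA4 at 5 and 8. At one list size FOXA2 stood at 5 and 3 and GATA4 at 7 and 6, so the order at GATA4 turned. Surface ectoderm genes numbered 4 and 4 of 9, with GRHL2, an epithelial factor, at 20 gained and 5 lost and TP63 at 5 and 9. Neural crest genes numbered 6 and 3 of 11 as deposited and 2 and 7 at one list size, and the difference in bases inside peaks was −7.497% in pNE_T. Within the neural crest list PAX7 had 5 gained and 12 lost, ETS1 6 and 13, and PAX3 7 and 6. At one list size ETS1 stood at 7 and 8 and PAX3 at 6 and 7. Whether other cell types contributed to these lists was not tested.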

How the data were processed

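H1 cells of 10 groups, with 3 libraries per group in the labels, were profiled by OmniATAC-seq. The deposited files give peak positions only, 1 list per group, as sequence name, start and end; the way the authors combined replicates and their threshold are not given in the sources used here. Bowtie2, MACS2 and the build hg38 are named by the submitters' processing notes. With 1 list per group no test was made. Wilson intervals at 95% cover the sampling of regions.

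Peaks were merged at an overlap of 1 bp. The 18201 pNE and 17526 pNE_T peaks outside chromosomes 1 to 22 were left out. Genes (19122 protein-coding) and promoters came from RefSeq GRCh38.p14. Of 203 listed genes 198 were matched, TDGF1 through CRIPTO. Sequence of distal peaks was not analysed here, since no genome was used, so sequence features are given for promoters only. Named genes were those with the 10 highest gained and lost counts, the 5 highest and lowest differences, and the extreme members of each list; the 4 widest distal peaks of each class and the widest near telencephalon, hindbrain and retinoic acid genes were also named, leaving out chromosome 8. Some genes that this rule names are not reported here. Members and lists were chosen with earlier results of these data known. The code was tested on simulated lists. Python 3.11.15, numpy 2.4.6, pandas 2.3.3, scipy 1.17.1 and matplotlib 3.10.9 were used.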

Additional observations from a re-analysis of the deposited data

Results flagged for a closer look

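From day 2 to day 4 in telencephalon medium, 2 of the 4 HOX clusters and 5 of the 13 gene lists moved in opposite directions from the 2 origins as deposited. Each origin has 1 list per day, so none of these differences was tested, and origin cannot be told apart from plating density and day 2 medium. Bases inside peaks in the HOXA cluster were 14.4% more in pNE_T than in pNE, and differed by −9.21% between aNE and aNE_T, a difference of 23.6 percentage points. In HOXB the values were 23.7% and −2.33%, a difference of 26 points. At one list size the differences were 25.5 points for HOXA and 36.3 for HOXB. HOXC and HOXD went the same way from both origins: 7.27% more from the posterior and 11.3% more from the anterior in HOXC, and 20.2% and 9.02% more in HOXD. The HOXC difference was −4.02 points as deposited and 5.71 at one list size.

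For gene lists the values are genes with more gained minus genes with more lost regions, and 8 alternative readings gave both origins. The FGF list stood at −3 from the posterior and 14 from the anterior origin, a difference of −17, and was opposite in 7 of the 8. The midbrain list stood at −3 and 7, a difference of −10, opposite in 6. The early neural list stood at −1 and 9, a difference of −10, opposite in 5. The pluripotency list stood at −5 and 4, a difference of −9, opposite in 4. The telencephalon list stood at −5 and 11, a difference of −16, and was opposite in 3. By nearest gene end the telencephalon list stood at 3 and 6, the midbrain list at 5 and 8, the pluripotency list at 4 and 6, and the early neural list at 6 and 10, each above 0 from both origins. At one list size the telencephalon list stood at −3 and 4, and the pluripotency list at −7 and −1. The aNE list is the smallest of the 10, and over all genes 64.1% had more gained than lost regions from aNE to aNE_T, against 42.9% from pNE to pNE_T. At one list size the FGF list stood at −3 and 8, the midbrain list at −3 and 2 and the early neural list at −2 and 1, so all 5 differences were smaller there than as deposited.

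Peaks outside chromosomes 1 to 22 were not used in any comparison. They made up 8.36% of the pNE list and 7.78% of the pNE_T list.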

How the results depend on the processing

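No paired analysis was possible because each group has 1 deposited list and the columns carry no replicate number; leaving out a replicate could not be run for the same reason. The difference in Jaccard index and the gained minus lost regions of single named genes kept their sign under each alternative run, while 11 of 13 gene lists and the balance over all genes did not. In what follows A and B stand for the shares of gained regions open in aNE_T (21.0% as deposited) and in pNE_H (57.9%), C and D for the shares of lost regions open in aNE_T (42.7%) and in pNE_H (63.3%), and E for the share of gains also made from aNE to aNE_T (13.7%). F and G are the shares of gained and of lost regions within 1 kb of a gene end (7.58% and 8.53%). H and I are the shares open in pNE_T of regions closed in pNE and open in aNE_T but not pNE_H (20.7%), or in pNE_H but not aNE_T (26.0%), and J is the share of genes with more gained than lost regions (42.9%). Only values that moved beyond their interval, or counts beyond 1.5 times, are given. With all lists at the widest peaks of the smallest list, A was 22.8%, B 40.5%, C 47.5%, D 38.8%, E 11.8%, F 7.88%, H 23.1%, I 37.7% and J 36.0%, and 2 pluripotency genes had more gained regions instead of 4. With only pNE and pNE_T brought to 1 size, A was 21.4%, B 59.3%, C 43.6%, D 64.1%, E 14.1%, H 19.2%, I 24.5% and J 37.5%. Thinned at random, 85924 regions were kept, and A was 32.6%, B 36.2%, C 48.8%, D 40.3%, E 11.1%, F 10.7%, G 12.0%, H 32.3%, I 22.5% and J 38.6%. With the widest 50% of each list, 33841 regions were gained, 29093 lost and 67596 kept, fewer because fewer peaks enter, and A was 20.2%, B 58.7%, C 44.7%, E 13.3%, F 8.60%, G 9.81%, I 27.3% and J 38.6%. When a region had to be covered to 50%, 72631 were kept, A was 20.3%, B 53.5%, C 38.8%, D 58.9%, E 13.3%, F 8.19%, G 9.22%, H 19.5% and I 22.8%, and 11 telencephalon genes had more gained (8 more lost) instead of 6. In windows of 500 bp, A was 21.8%, B 59.6%, C 43.8%, D 64.7%, E 14.2%, F 8.69%, G 10.1%, H 21.96%, I 27.7% and J 42.0%. Merging pNE and pNE_T only gave A 21.7%, B 58.7%, E 14.1% and J 41.1%, and leaving out regions within 1 kb of gene ends gave A 20.6%. Lists whose balance (genes with more gained minus genes with more lost) changed sign were as follows. By nearest gene end the telencephalon list went from −5 to 3, midbrain from −3 to 5, pluripotency from −5 to 4, early neural from −1 to 6 and neural crest from 3 to −3. At one size by width the retinoic acid list went from 2 to −3, WNT from 4 to −4 and neural crest to −5. Thinned at random WNT was −2, neural crest −2, mesoderm and endoderm −1 (3 as deposited) and dorsoventral −2 (5). In the widest 50% WNT was −7 and mesoderm and endoderm −1. Covered to 50%, telencephalon was 3, FGF 2 (−3), neural crest −4 and dorsoventral −1. In 500 bp windows neural crest was −2. With pNE and pNE_T at 1 size, proneural and Notch was −2 (1), and merged from these lists only, retinoic acid, WNT and dorsoventral were −1. Over all genes the percent with more gained minus that with more lost was 1.87 as deposited, −10.04 at one size, −8.902 with pNE and pNE_T at 1 size, −8.898 thinned at random and −2.96 merged from these lists only. The cause of each difference was not tested. Hindbrain genes with more gained than lost regions numbered 12 to 17 of 20 in all settings. Read depth is unknown and limits every list.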
